A study of Homo sapiens with 8 samples.

Results

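The genes described here encode enzymes and complex subunits that add methyl groups to lysine 4 of histone H3 (H3K4) or remove them. They were chosen by name, as rows of the table of normalized counts called *SETD1A*, *SETD1B*, *WDR5*, *RBBP5*, *ASH2L*, *DPY30*, *KDM1A*, *KDM1B*, *KDM5A* and *KDM5B*. All 10 names were present among the 13307 genes of the table, and all 10 passed the filter on low values, which asked for 10 normalized counts or more in 2 libraries. The libraries came from Panc-1 cells, an established human line of pancreatic ductal carcinoma. Cells were transfected with non-targeting control siRNA (siControl) or with siRNAs against the H3K4 methylation reader PHF13 (siPHF13), and from the next day were kept with or without TGFβ, a cytokine that drives epithelial-mesenchymal transition. TGFβ was given at 10 ng/ml for 48 h. The resulting 4 groups, siControl, siPHF13, siControl + TGFβ and siPHF13 + TGFβ, had 2 libraries each. No genetic change is named for any group. Per the labels every group, the controls included, received an siRNA, and no library labelled as untransfected was analysed. The table names the columns used for siControl without TGFβ only NT, which the labels do not spell out. They were taken as siControl because every other column name matches another group, so all values of siControl, and the comparisons made with it, rest on that reading.

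Methylated H3K4 marks active promoters, where the trimethylated form is found, and enhancers, where the monomethylated form predominates. It is written by complexes of the COMPASS type, in which a catalytic subunit with a SET domain is activated by a core of WDR5, RBBP5, ASH2L and DPY30. SETD1A and SETD1B are the catalytic subunits that account for much of the trimethylation at promoters. The mark is removed by the flavin-dependent enzymes KDM1A (LSD1) and KDM1B (LSD2), which act on mono- and dimethylated lysine, and by the JmjC enzymes KDM5A and KDM5B (JARID1A and JARID1B), which act on di- and trimethylated lysine. PHF13 binds H3K4 in its di- and trimethylated forms through its PHD finger.

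The libraries held between 39196214 and 46700806 reads on the genes of the table. *PHF13* had 1804.0 and 1662.4 normalized counts in siControl, 524.2 and 558.3 in siPHF13, 1585.9 and 1709.5 in siControl + TGFβ, and 512.8 and 529.4 in siPHF13 + TGFβ. Depletion thus left 31.3% of its level without TGFβ and 31.7% with it. The keratins of ductal epithelium were present in all 8 libraries, with at least 70722.5 normalized counts of *KRT8*, 29407.5 of *KRT18*, 18357.7 of *KRT19* and 378.9 of *KRT7*, and *EPCAM* had between 115.2 and 305.8. Some of these markers moved with the treatments. With TGFβ in siControl cells *KRT8* fell by 0.68 and *KRT19* by 0.84 on the log2 scale, *EPCAM* rose by 0.78 after depletion without TGFβ, and *KRT19* rose by 0.76 and *EPCAM* by 0.94 after depletion with TGFβ (limma adjusted p at most 0.00292). Not all markers rose after depletion. *KRT18* fell by 0.33 without TGFβ (limma adjusted p = 0.00101) and was at -0.07 with it, and *KRT7* was at -0.02 and -0.01. *KRT18* also fell by 0.57 with TGFβ in siControl cells (limma adjusted p = 5.84e-05). Of 5 markers of other pancreatic cells, the fibroblast collagen *COL1A1* was measured, and the leukocyte, endothelial, acinar and islet markers (*PTPRC*, *PECAM1*, *PRSS1* and *INS*) were not analysed here. *COL1A1*, which TGFβ also induces in epithelial cells, had 3345.2 and 3432.8 normalized counts in siControl, 1921.7 and 1887.1 in siPHF13, 16413.9 and 15333.8 in siControl + TGFβ, and 4908.6 and 4691.2 in siPHF13 + TGFβ cells. It thus moved with both treatments, and the part of these markers in the results was not tested. The replicates of siPHF13 + TGFβ lay farthest apart, with a median absolute difference of 0.15 on the log2 scale over all genes, against 0.07 in siControl, 0.10 in siPHF13 and 0.11 in siControl + TGFβ. Normalized counts compare a gene with the rest of the RNA of a library, so fewer cells with a transcript and less of it per cell cannot be told apart.

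Depletion of PHF13 called 1 of the 10 genes lower without TGFβ and 2 with it, where 10.4% and 11.7% of all genes were called lower. Without TGFβ, *KDM5A* fell to 62.3% of its siControl level. With TGFβ, *KDM5A* fell to 61.2% and *KDM1B* to 58.2% of the siControl + TGFβ level. Once library values were adjusted for GC content and length, *KDM5A* was below the fold threshold in both comparisons, and 0 and 1 of the 10 genes were called. Of all 12317 genes so adjusted, 2221 and 2364 were called. Neither depletion comparison called a writer or core subunit, and TGFβ called none of the 10 genes in either background. With TGFβ in siControl cells *KDM1B* rose by 0.26 on the log2 scale (limma adjusted p = 0.0142), below the fold threshold. A gene was called changed when limma gave it a p under 0.05 after Benjamini-Hochberg adjustment over all 13307 genes and its absolute log2 fold change was over 0.58. Standard errors (SE) are on the log2 scale.

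Promoters are shown for the demethylase genes whose limma adjusted p was under 0.05 in both depletion comparisons, before adjustment for GC content and length. The 250 bases upstream of the RefSeq start were examined. The longest stretch outside annotated exons is printed 5′ to 3′ on the strand of each gene. In GRCh37 these stretches are chr12:498694-498736 on the minus strand for *KDM5A*, chr6:18155403-18155559 on the plus strand for *KDM1B* and chr1:202777616-202777799 on the minus strand for *KDM5B*. Capitals mark the GC box GGGCGG on either strand.
KDM5A: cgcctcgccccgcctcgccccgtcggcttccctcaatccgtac
KDM1B: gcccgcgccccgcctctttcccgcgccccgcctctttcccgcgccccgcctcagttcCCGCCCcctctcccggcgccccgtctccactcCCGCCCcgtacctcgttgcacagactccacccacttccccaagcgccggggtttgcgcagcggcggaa
KDM5B: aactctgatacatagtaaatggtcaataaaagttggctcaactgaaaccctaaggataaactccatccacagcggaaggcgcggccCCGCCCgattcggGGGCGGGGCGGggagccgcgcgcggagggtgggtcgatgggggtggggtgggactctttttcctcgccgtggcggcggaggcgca
The stretch of *KDM5A* is short because 207 of the 250 bases lie in exons of *CCDC77*, a gene read in the opposite direction. The whole windows of *KDM5A*, *KDM1B* and *KDM5B* held 18, 30 and 27 CpG dinucleotides, against a median of 11 and quartiles of 3 and 23 over the 35116 promoters of the RefSeq table. GGGCGG occurred 1 time in the window of *KDM5A* and 3 times each in those of *KDM1B* and *KDM5B*, where a pair of copies overlaps in *KDM5B*, and in 42.6% of all promoter windows. The CCAAT box, present in 32% of all windows, and the AP1 motif TGANTCA, present in 6.57%, were found on neither strand of these 3 windows. A match of letters is a description of the sequence and shows no bound factor.

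**Figure D1:**
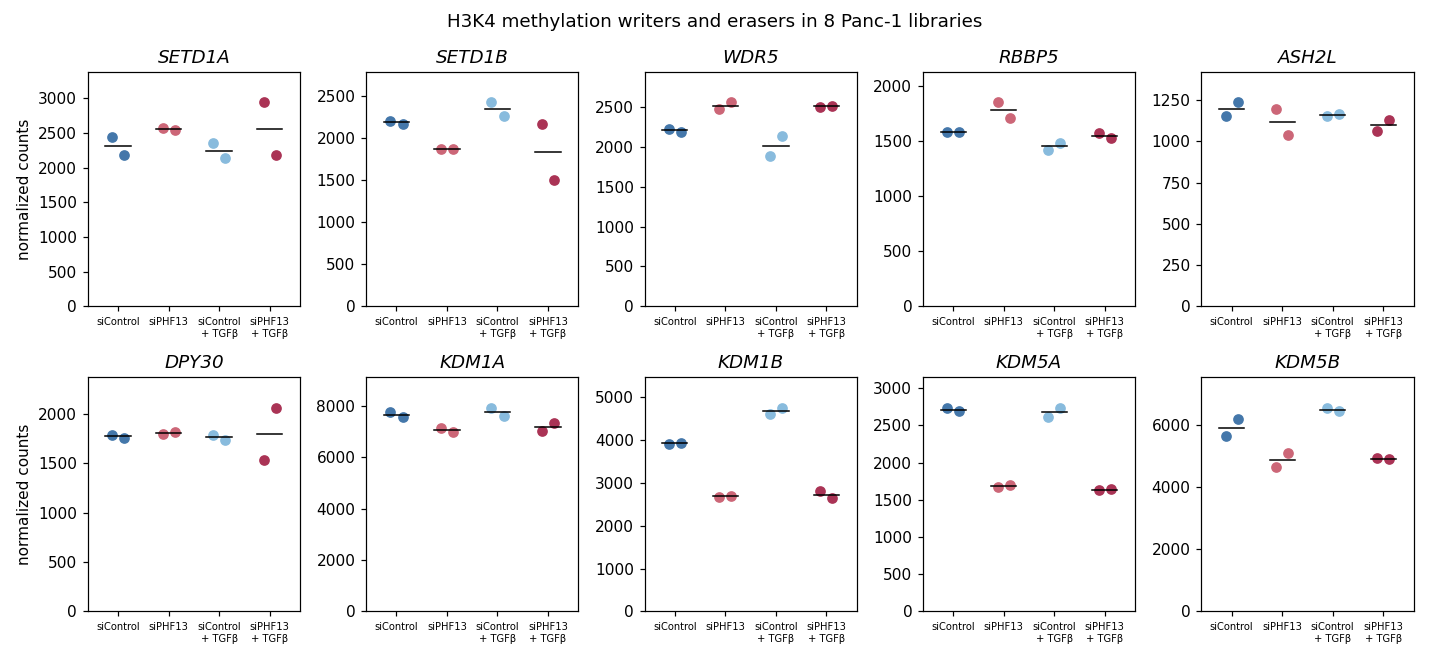
Normalized counts (vertical axis, from 0) of the 10 genes in each of the 8 libraries, with a point per library and a line at the mean of the 2 libraries of a group. The siPHF13 libraries of *KDM5A* and *KDM1B* lie below all siControl libraries with and without TGFβ, and the points of *SETD1A*, *SETD1B* and *DPY30* in siPHF13 + TGFβ lie far apart.

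*KDM5A*, a JmjC demethylase of di- and trimethylated H3K4, lies on the minus strand of chromosome 12 of GRCh37 from 389223 to 498486. It had 2728.7 and 2694.9 normalized counts in siControl and 1677.0 and 1699.6 in siPHF13 cells. With TGFβ it had 2618.7 and 2738.0 in siControl and 1637.6 and 1639.1 in siPHF13 cells. The depleted libraries were lower than the controls in all 4 cases and the groups did not overlap. Depletion gave a log2 fold change of -0.68 (SE 0.07, limma adjusted p = 3.02e-06) without TGFβ and -0.71 (SE 0.07, limma adjusted p = 1.99e-06) with TGFβ. When the values of every library were adjusted for the GC content and length of the transcripts, these were -0.55 and -0.48, below the fold threshold, with adjusted p-values of 1.07e-05 and 3.5e-05 from limma. The transcript of *KDM5A* has 10701 bases. Across 12317 genes, the log2 fold change after depletion had a Pearson correlation with log2 transcript length of -0.11 without and -0.19 with TGFβ; the genes share the same libraries and are not replicates. The part of transcript length in the fall of *KDM5A* was not tested beyond this correction.

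*KDM1B*, which encodes the demethylase LSD2, lies on the plus strand of chromosome 6 from 18155560 to 18224085. It had 3911.5 and 3916.7 normalized counts in siControl, 2670.6 and 2693.0 in siPHF13, 4611.0 and 4746.8 in siControl + TGFβ, and 2804.6 and 2644.0 in siPHF13 + TGFβ cells. The siControl + TGFβ libraries were the highest and the 4 depleted libraries the lowest, with no overlap between these groups. Its log2 fold change after depletion was -0.78 with TGFβ (SE 0.06, limma adjusted p = 4.08e-07). Without TGFβ it was -0.55 (SE 0.06, limma adjusted p = 1.25e-05), which missed the fold threshold. With the GC and length correction these values were -0.65 and -0.44. *KDM1B* was also the only member with an adjusted p under 0.05 for TGFβ in siControl cells, where its log2 fold change of 0.26 (SE 0.06, limma adjusted p = 0.0142) stayed below the fold threshold. In siPHF13 cells the log2 fold change with TGFβ was 0.02. The difference between these responses was -0.24 (95% interval from -0.43 to -0.04, unadjusted), and its adjusted p of 0.388 from limma did not pass the threshold.

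*KDM5B*, the JmjC paralogue of *KDM5A*, lies on the minus strand of chromosome 1 from 202693623 to 202777615. It had 5633.9 and 6186.3 normalized counts in siControl and 4660.9 and 5107.8 in siPHF13 cells, and 6554.8 and 6436.7 in siControl + TGFβ and 4950.7 and 4889.5 in siPHF13 + TGFβ cells. The depleted libraries were again below the controls, by less than for *KDM5A*. The log2 fold change was -0.27 (limma adjusted p = 0.0044) without TGFβ and -0.40 (limma adjusted p = 0.000253) with TGFβ, and neither passed the fold threshold. With the GC and length correction these values were -0.15 (limma adjusted p = 0.0599) and -0.19 (limma adjusted p = 0.0201). With 1 library left out, the value of *KDM5B* without TGFβ lay between -0.34 and -0.21. *KDM1A*, which encodes LSD1, the catalytic subunit of the CoREST complex, lies on the plus strand of chromosome 1 from 23345936 to 23410182. Its normalized counts were 7743.3 and 7571.2 in siControl, 7143.6 and 6971.2 in siPHF13, 7930.4 and 7607.2 in siControl + TGFβ, and 7038.5 and 7317.8 in siPHF13 + TGFβ cells. These groups were close to each other, although the 4 depleted libraries were below the 4 controls. The log2 fold changes of -0.12 (limma adjusted p = 0.114) and -0.11 (limma adjusted p = 0.121) passed no threshold, with 95% intervals from -0.24 to 0.01 in both comparisons.

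**Figure D2:**
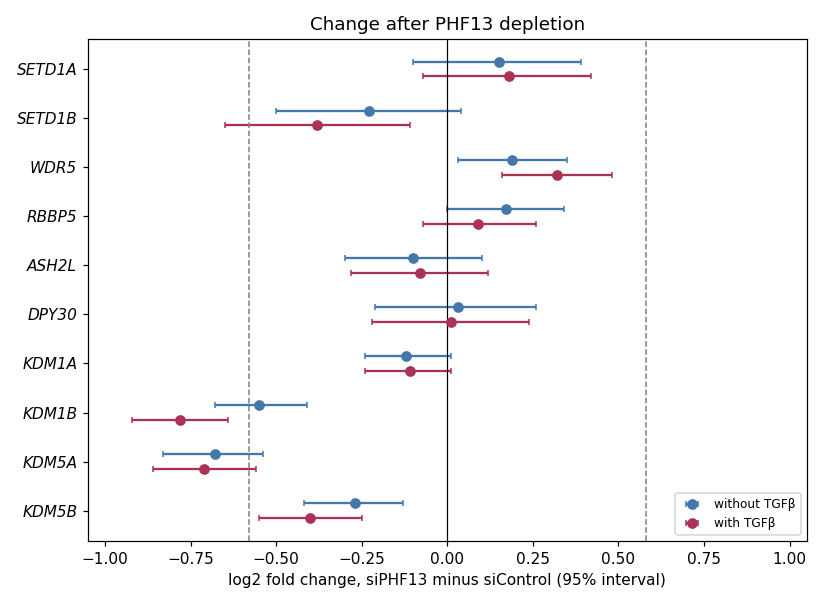
Log2 fold change of each gene after depletion of PHF13 (horizontal axis) without and with TGFβ, as points with unadjusted 95% intervals from the limma fit. Dashed lines mark the fold threshold of 0.58, which *KDM5A* passed in both comparisons (-0.68 and -0.71) and *KDM1B* with TGFβ (-0.78).

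The catalytic writers showed no called change. *SETD1A* lies on the plus strand of chromosome 16 from 30968615 to 30995985. It had 2440.4 and 2186.7 normalized counts in siControl, 2573.2 and 2545.0 in siPHF13, 2348.1 and 2134.3 in siControl + TGFβ, and 2940.6 and 2181.0 in siPHF13 + TGFβ cells. The siPHF13 + TGFβ replicates were the highest and the second lowest of the 8 libraries, and the log2 fold changes after depletion were 0.15 without and 0.18 with TGFβ (limma adjusted p-values 0.306 and 0.208). *SETD1B* lies on the plus strand of chromosome 12 from 122241915 to 122270562. Its values were 2211.8 and 2176.8 in siControl, 1869.9 and 1876.2 in siPHF13, 2427.9 and 2272.1 in siControl + TGFβ, and 2173.1 and 1499.6 in siPHF13 + TGFβ cells. All depleted libraries were below all controls, siPHF13 + TGFβ replicate 1 only just, and the siPHF13 + TGFβ replicates again lay apart. Without TGFβ the log2 fold change was -0.23, below the fold threshold (limma adjusted p = 0.15, or 0.00548 when fitted on only the libraries compared). With TGFβ it was -0.38 (SE 0.12, limma adjusted p = 0.0211). The latter rested on single libraries, since it was -0.65 (limma adjusted p = 8.25e-06) without siPHF13 + TGFβ replicate 1, past both thresholds, and -0.11 (limma adjusted p = 0.286) without siPHF13 + TGFβ replicate 2. It also missed an adjusted p of 0.05 without either siControl + TGFβ replicate, with 0.121 and 0.0514 from limma.

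Replicate 1 of siPHF13 + TGFβ was above replicate 2 by 0.43 on the log2 scale for *SETD1A* and by 0.53 for *SETD1B*, and below it by 0.43 for *DPY30*. These gaps were larger than those of 88.5%, 92.2% and 88.5% of all genes in that group. The transcripts of *SETD1A* and *SETD1B* have 5991 and 8557 bases with a GC content of 62.6% and 61.4%, and that of *DPY30* has 688 bases. The longest transcripts among the members, of *KDM5A* (10701 bases) and *KDM5B* (9292 bases), had gaps of -0.00 and 0.02 between the same replicates. Across 12317 genes, the gap between these replicates had a Pearson correlation of 0.19 with log2 transcript length and 0.07 with GC content, and the part of either in the gaps was not tested.

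No core subunit was called in any comparison. *WDR5*, a subunit with WD40 repeats that binds the catalytic subunits, lies on the plus strand of chromosome 9 from 137000487 to 137025090. It had 2233.6 and 2194.0 normalized counts in siControl, 2477.7 and 2562.8 in siPHF13, 1895.3 and 2137.3 in siControl + TGFβ, and 2502.4 and 2521.7 in siPHF13 + TGFβ cells. All depleted libraries were above all controls, the reverse of the erasers. Its log2 fold change was 0.19 (limma adjusted p = 0.0547) without TGFβ and 0.32 (SE 0.07, limma adjusted p = 0.00286) with TGFβ, below the fold threshold. *RBBP5*, on the minus strand of chromosome 1 from 205055270 to 205091143, encodes the subunit that joins ASH2L to the catalytic subunit. It had 1581.1 and 1576.8 normalized counts in siControl, 1848.1 and 1703.6 in siPHF13, 1419.8 and 1479.1 in siControl + TGFβ, and 1571.8 and 1523.6 in siPHF13 + TGFβ cells. It was the only member whose 4 TGFβ libraries all lay on one side of the 4 untreated libraries, here below them, which held for 3.13% of all genes in this direction. Its log2 fold changes with TGFβ were -0.12 in siControl and -0.20 in siPHF13 cells (limma adjusted p-values 0.33 and 0.247).

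*ASH2L*, on the plus strand of chromosome 8 from 37963011 to 38001594, had between 1037.7 and 1236.2 normalized counts over the 8 libraries. *DPY30*, which encodes a small subunit that binds ASH2L, lies on the minus strand of chromosome 2 from 32092878 to 32264874 and had between 1531.9 and 2063.6, both extremes in siPHF13 + TGFβ. Depleted and control libraries overlapped for both genes. After depletion, the log2 fold changes of *ASH2L* were -0.10 and -0.08 (95% intervals from -0.30 to 0.10 and from -0.28 to 0.12), and those of *DPY30* were 0.03 and 0.01 (from -0.21 to 0.26 and from -0.22 to 0.24). In the GENCODE annotation, 1385 exonic bases of *DPY30* are shared with *MEMO1* on the same strand, so that the counts of *DPY30* are uncertain. The exons of *KDM5A* share 48 bases with *CCDC77* on the opposite strand, and reads there cannot be told apart if the counting ignored strand.

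For the 10 genes as a set, the share called was near that of the whole table. Without TGFβ, 1 of 10 was called after depletion (*KDM5A*, lower), where 18.4% of all genes were called and 10.4% were called lower. With TGFβ, 2 of 10 were called (*KDM5A* and *KDM1B*, both lower), where 20.5% of all genes were called and 11.7% were called lower. With the GC and length correction, the members called were 0 without and 1 with TGFβ, where 2221 and 2364 of 12317 genes were called. On the adjusted p alone, 3 of 10 members were lower without TGFβ, against 24.3% of all genes lower and 47.4% in either direction. With TGFβ, 4 of 10 were lower and 1 higher, against 25.9% and 24.5% of all genes and 50.4% in either direction. For 6 of 10 members, all 4 depleted libraries lay on one side of all 4 controls (*WDR5* above, and *SETD1B*, *KDM1A*, *KDM1B*, *KDM5A* and *KDM5B* below), which held for 47.4% of all genes. The median log2 fold change of the 10 genes was -0.11 without and -0.10 with TGFβ, with values from -0.68 to 0.19 and from -0.78 to 0.32, and that of all genes was 0.00 in each comparison.

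TGFβ called none of the 10 genes with limma in siControl cells, where 4.79% of all genes were called, and none in siPHF13 cells, where 1.35% were called. At an unadjusted p under 0.05 there was 1 member in each, *KDM1B* in siControl and *RBBP5* in siPHF13 cells. Of all genes, 28.4% in siControl and 13.9% in siPHF13 cells had such a p. On the adjusted p alone *KDM1B* was the 1 member that passed in siControl cells, where 15.9% of all genes did. On recovered reads of siControl cells, edgeR and DESeq2 each called 0 members. The siControl + TGFβ libraries are the treated group of this comparison and the controls of the depletion with TGFβ, so the values of *KDM1B* in these comparisons share libraries. Log2 fold changes with TGFβ lay between -0.14 and 0.26 in siControl and between -0.20 and 0.02 in siPHF13 cells. No member was called for the difference between the TGFβ responses of siPHF13 and siControl cells with limma, where 0.308% of all genes were called. For this difference 1 member, *KDM1B*, had an unadjusted p under 0.05, as did 9.46% of all genes.

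**Figure D3:**
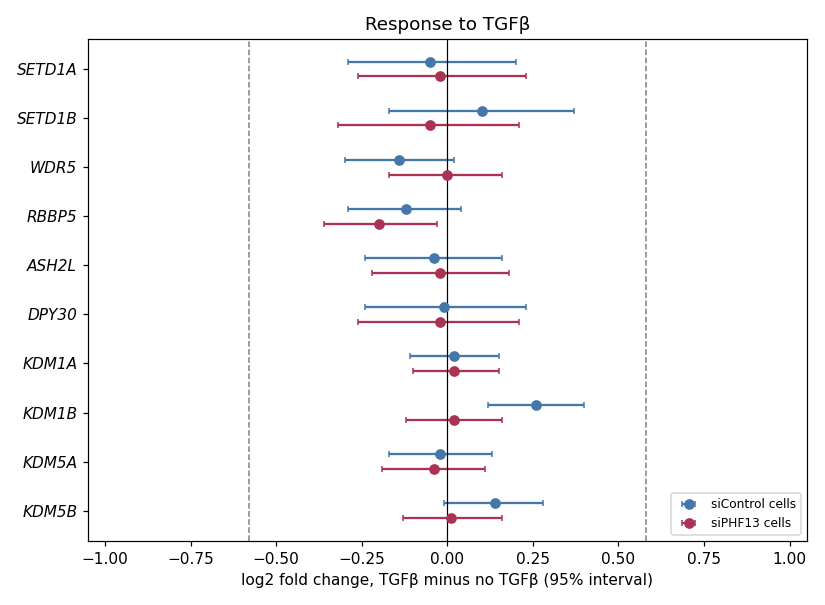
Log2 fold change of each gene with TGFβ (horizontal axis) in siControl and siPHF13 cells, as points with unadjusted 95% intervals from the limma fit. All 20 points lie inside the dashed lines at the fold threshold of 0.58, and *KDM1B* in siControl cells (0.26) has the largest value.

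The ratios of normalized counts within each pair of paralogous enzymes are given per library as a description. The ratio of *SETD1A* to *SETD1B* normalized counts was between 0.939 and 1.1 in the 4 siControl libraries and between 1.35 and 1.45 in the 4 siPHF13 libraries. The replicates of siPHF13 + TGFβ, which lay apart for each gene, had close ratios of 1.35 and 1.45. The ratio of *KDM1A* to *KDM1B* was 1.98 and 1.93 in siControl, 1.72 and 1.6 in siControl + TGFβ, 2.67 and 2.59 in siPHF13, and 2.51 and 2.77 in siPHF13 + TGFβ cells. The ratio of *KDM5B* to *KDM5A* was between 2.06 and 2.5 in the controls and between 2.78 and 3.02 after depletion. These ratios are not corrected for transcript length, so their differences between libraries can be read but their size cannot, and they were not tested. Depleted and control ratios did not overlap in any of the 3 pairs, but 47.4% of single genes did not overlap either, other gene pairs were not examined, and the ratios with *KDM1B* and *KDM5A* follow largely from the lower counts of these genes. Reads shared by paralogues could move counts from one gene of a pair to the other, and how such reads were counted is not given in the sources used here.

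**Figure D4:**
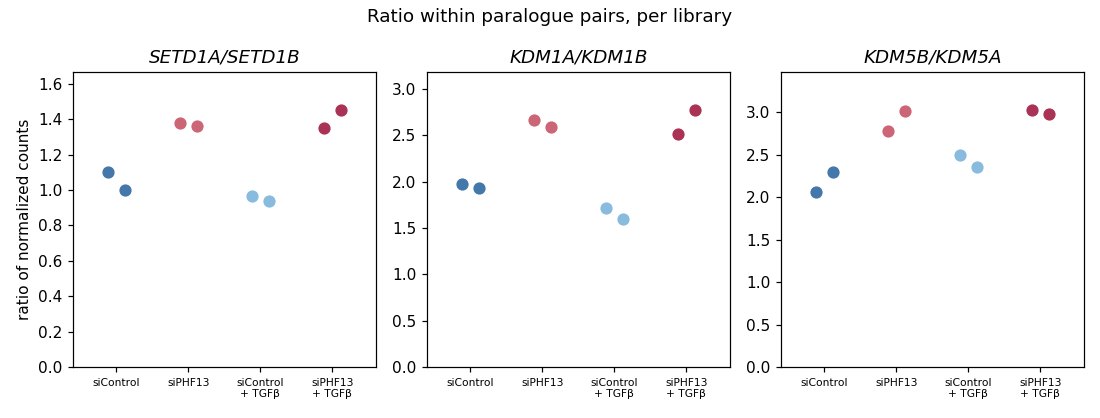
Ratio of normalized counts within 3 pairs of paralogous genes (vertical axis, from 0) in each library, with a point per library. The siPHF13 points lie above the siControl points in each pair, for example 1.35 to 1.45 against 0.939 to 1.1 for *SETD1A* over *SETD1B*.

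Levels were compared between genes as normalized counts per kilobase of the canonical GENCODE transcript. In siControl cells *DPY30* (2580 ± 25.1, SD, n = 2) and *KDM1A* (2480 ± 39.4) were highest, followed by *KDM1B* (863 ± 0.811), *WDR5* (701 ± 8.89) and *KDM5B* (636 ± 42). *ASH2L* (409 ± 20.3), *SETD1A* (386 ± 29.9) and *RBBP5* (362 ± 0.701) came next, and *SETD1B* (256 ± 2.89) and *KDM5A* (253 ± 2.24) were lowest. The replicates of *ASH2L* and *SETD1A* overlapped, as did those of *SETD1B* and *KDM5A*, so that the order within these pairs was not resolved. In siPHF13 cells *KDM5A* stood apart at the bottom with 158 ± 1.5 against 219 ± 0.519 for *SETD1B*, and *WDR5* (798 ± 19.1) was above *KDM1B* (591 ± 3.49), in the reverse of their order in siControl cells. The same order of *WDR5* (796 ± 4.34) over *KDM1B* (600 ± 25) was found in siPHF13 + TGFβ cells, where *KDM5A* was again lowest (153 ± 0.0977) and the replicates of *DPY30* (2610 ± 546) and *KDM1A* (2330 ± 64) overlapped. In siControl + TGFβ cells *KDM1B* reached 1030 ± 21.2, and *KDM5B* (699 ± 8.98) was above *WDR5* (639 ± 54.2). The order across genes depended on the length used. Per kilobase of all annotated exons, *KDM1B* was first in siControl cells and *DPY30* second.

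Other genes of the pathway were followed in 3 lists. The first held 15 genes of the KMT2 enzymes and of subunits outside the core that COMPASS complexes share, all measured. None was called by limma after depletion without TGFβ (7 at an unadjusted p under 0.05) or with TGFβ (10 at an unadjusted p under 0.05, and 0 called by edgeR and DESeq2). Of all genes, 54% and 56.2% had an unadjusted p under 0.05 in these comparisons, and 18.4% and 20.5% were called. Their log2 fold changes lay between -0.53 and 0.21 and between -0.53 and 0.35. On the adjusted p alone, 1 gene of this list was higher and 4 were lower without TGFβ, and 3 were higher and 6 lower with it. Of all genes, 47.4% and 50.4% passed on the adjusted p in either direction. The 3 genes of this list that were higher with TGFβ were *CXXC1*, *WDR82* and *MEN1*, with log2 fold changes of 0.35, 0.24 and 0.20. *PAXIP1*, a subunit of the KMT2C and KMT2D complexes, was called in no comparison and was named here after its values were seen. It had 2372.1 and 2275.9 normalized counts in siControl, 1686.9 and 1611.9 in siPHF13, 2459.1 and 2175.4 in siControl + TGFβ, and 1811.5 and 1416.8 in siPHF13 + TGFβ cells, with log2 fold changes of -0.49 and -0.53.

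The second list held 5 other enzymes reported to methylate H3K4, of which 4 were measured. *SETD7*, a monomethyltransferase of H3K4 and of other proteins, was the 1 of these 4 called, and it rose in both depletion comparisons, where 7.95% and 8.81% of all genes were called higher. It had 1765.1 and 1662.4 normalized counts in siControl, 3209.7 and 3017.5 in siPHF13, 1859.7 and 1875.1 in siControl + TGFβ, and 3371.4 and 2903.8 in siPHF13 + TGFβ cells. All depleted libraries were far above all controls. The log2 fold change was 0.86 (SE 0.08, limma adjusted p = 1.7e-06) without TGFβ and 0.74 (SE 0.08, limma adjusted p = 5.75e-06) with TGFβ, and 1.00 and 0.95 after the GC and length correction.

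The third list held 12 other H3K4 demethylases and partners of KDM1A or KDM1B, of which 11 were measured. After depletion 10 of these were lower and 1 higher without TGFβ, and all 11 were lower with TGFβ, with medians of -0.21 and -0.24. Of all genes, 50.1% and 49.7% were lower in these comparisons, and the direction of the list was not tested. None was called by limma without TGFβ (8 at an unadjusted p under 0.05, where 54% of all genes had one), and 1 with TGFβ, where 20.5% of all genes were called and 11.7% were called lower. This was *HDAC1*, a histone deacetylase that acts beside KDM1A in the CoREST complex. It had 6955.1 and 7109.9 normalized counts in siControl, 4993.1 and 4985.5 in siPHF13, 8212.9 and 8305.6 in siControl + TGFβ, and 4925.9 and 5152.2 in siPHF13 + TGFβ cells. The pattern was like that of *KDM1B*, highest in siControl + TGFβ and lowest in the depleted libraries. The log2 fold change of *HDAC1* was -0.71 (SE 0.06, limma adjusted p = 3.9e-07) with TGFβ. Without TGFβ it was -0.50 (SE 0.06, limma adjusted p = 1.26e-05), which missed the fold threshold. *HDAC2*, a histone deacetylase of the same list, was at 0.04 without and -0.02 with TGFβ (limma adjusted p-values 0.653 and 0.77). For TGFβ in siControl cells, limma, edgeR and DESeq2 called 0 genes of the 3 lists, with 2 of 15, 1 of 4 and 4 of 11 genes at an unadjusted p under 0.05, where 28.4% of all genes had one and 4.79% were called.

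**Figure D5:**
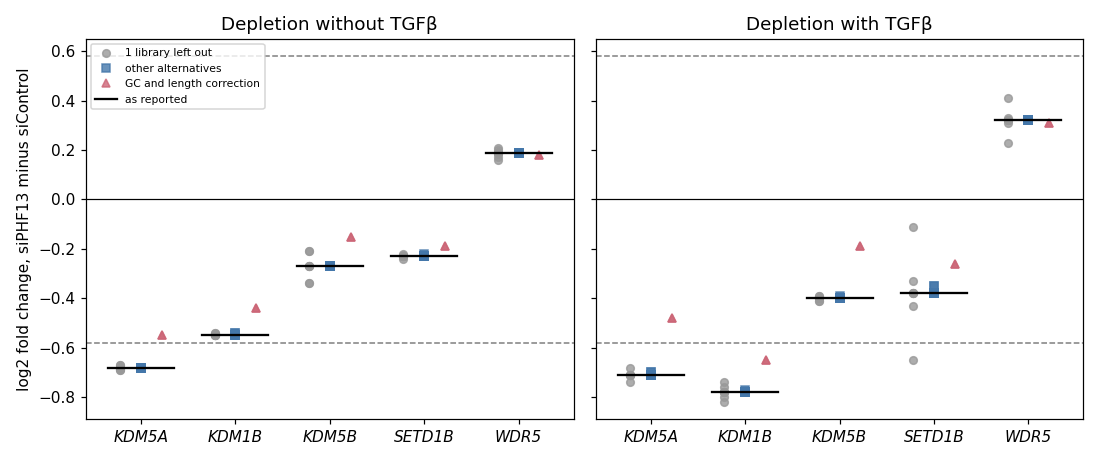
Log2 fold change after depletion (vertical axis) of 5 genes under each processing alternative, without TGFβ on the left and with TGFβ on the right, with a point per alternative, a black line at the reported value and dashed lines at the fold threshold of 0.58. The GC and length correction moved *KDM5A* from -0.68 to -0.55 and from -0.71 to -0.48, and leaving out 1 library spread *SETD1B* with TGFβ from -0.65 to -0.11.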

How the data were processed

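mRNA was sequenced from 8 libraries of Panc-1 cells in 4 groups. Per the labels and methods, the authors trimmed paired-end reads with Trim Galore 0.4.1, mapped them with STAR 2.7.0 to the hg19 transcriptome, counted exonic reads per gene with HTSeq 0.12.4 and normalized with DESeq2. The deposited signal is the gene count divided by a size factor of the library. The gene annotation and strand setting are not given in the sources used here. The deposited tables of the authors' comparisons hold fold changes and p-values and were not used.

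One limma 3.58.1 fit (R 4.3.3) with a trended prior on log2(normalized count + 1) covered all 8 libraries without a replicate block. The labels name no separate cultures, so p-values measure the spread between libraries, which may be technical. A minimum of 10 normalized counts in 2 libraries removed 0 genes. In the 6 libraries outside siPHF13, 100% of values were whole multiples of 1 read within 0.01, and edgeR 4.0.16 and DESeq2 1.42.0 were run on these reads as alternatives. They called 630 and 630 genes for TGFβ in siControl cells, and 2725 and 2641 for depletion with TGFβ. In the siPHF13 libraries 100% of values were whole too, but they were left out of the edgeR and DESeq2 runs because in replicate 1 a read was worth nearly 1 normalized count. Depletion without TGFβ, TGFβ in siPHF13 cells and the difference between TGFβ responses therefore had no check on reads. Fold changes are on the log2(value + 1) scale.

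Gene positions and lengths came from GENCODE v44 on GRCh37, and promoters from the RefSeq table, placed by exact match in GRCh37. The GC and length correction used natural splines of 5 degrees of freedom over 12317 genes (92.6%). All members were named. Of each pathway list, up to 4 genes called in at least 1 comparison were to be named. *CXXC1*, *WDR82*, *MEN1*, *PAXIP1* and *HDAC2* were named outside this rule. The members and lists were chosen with earlier results of these data known.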

Additional observations from a re-analysis of the deposited data

How the results depend on the processing

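Of 1144 recomputed values of *PHF13*, the members, *SETD7* and *HDAC1*, 0 called values changed sign. A change of sign was seen in 41 values called under neither setting, the largest of them 0.18. Several of the settings cannot alter a fold change, so the signs there were fixed in advance. These are the filters, the missing fold threshold, the fit on only the libraries compared and the replicate block. With no threshold on the fold change, depletion called 6308 genes and 3 members without TGFβ and 6712 genes and 5 members with it, and TGFβ called 2114 genes and 1 member in siControl cells and 409 genes in siPHF13 cells. With the GC and length correction, members called fell to 0 without and 1 with TGFβ, where 2221 and 2364 of 12317 genes were called. The same numbers of members, 0 and 1, came with the replicate block added, an alternative chosen after seeing the data. The cause of the fall in members called was not tested. With 1 library left out, the genes called for the difference between TGFβ responses ranged from 12 (without siControl replicate 2) to 111 (without siPHF13 + TGFβ replicate 1), against 41, and the lone library of a group was assumed to vary like the others. The other removals that moved this number by over 1.5 times gave 19 without siControl replicate 1, 22 without siPHF13 replicate 1, and 16 and 21 without siControl + TGFβ replicates 1 and 2.

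The replicate numbers were not used as pairs in the main fit. Between groups, the differences between replicates 1 and 2 correlated across genes between -0.09 and 0.05. This shows no large shared replicate effect, but it cannot tell whether libraries with the same number were prepared together. With a replicate block, 2438 and 2711 genes were called for depletion without and with TGFβ, 630 and 171 for TGFβ in siControl and siPHF13 cells, and 39 for their difference, and members called stayed at 1, 2, 0, 0 and 0. The lowest value of a member was 1037.7 normalized counts, and with 2 libraries per group a single library can decide a call, as for *SETD1B* with TGFβ.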
